A study of Mus musculus with 44 samples.

Results

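Hars encodes the histidyl-tRNA synthetase, the cytosolic enzyme that joins histidine to its tRNA, and Xpot encodes exportin-t, the Ran-dependent carrier that takes mature tRNA out of the nucleus. These 2 genes were followed through 3 probe sets, all that the platform's probe table gives them, of 12422 probe sets on the array. They were selected on the spread of their levels between mouse strains on these arrays, so that spread is described below with no test. The other aminoacyl-tRNA synthetases, 23 genes on 28 probe sets, served as the comparison.

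A tRNA is transcribed by RNA polymerase III, trimmed and modified in the nucleus, and exported by exportin-t, which prefers tRNAs with mature ends. In the cytoplasm each synthetase loads one amino acid onto the tRNAs for it, and the loaded tRNA is carried to the ribosome by elongation factor 1. Uncharged tRNA activates the kinase Gcn2 (Eif2ak4), which raises translation of the transcription factor Atf4. Atf4 in turn acts on genes for amino acid synthesis and uptake and on several synthetase genes. Protein synthesis is known to be held low in blood-forming stem cells relative to their progeny.

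RNA came from bone marrow of female mice aged 3 to 6 months, with the marrow of 3 mice pooled for each sample. Cells that carried Sca-1 and c-kit and little or no lineage marker (Lin-Sca-1+c-kit+), a population enriched for stem cells but also holding multipotent progenitors, were sorted from 22 BXD strains. BXD strains are recombinant inbred lines descended from C57BL/6 and DBA/2 parents, so each strain carries at most loci one of the parental alleles in 2 copies; the parental strains were not analysed here. Each strain had 2 arrays, 44 in all, on a one-colour Affymetrix platform, and the study set out to find loci behind stem cell function.

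The array numbers in the titles fell into 2 series that shared no strain. Series B held BXD1, BXD2, BXD5, BXD9, BXD14, BXD16, BXD18, BXD19, BXD21, BXD28, BXD34 and BXD39, and series A held BXD6, BXD8, BXD11, BXD12, BXD31, BXD32, BXD33, BXD38, BXD40 and BXD42. Nothing in the labels says that the arrays of a strain came from separate pools, so every p-value measures the spread between arrays or strain means, which may be partly technical. Levels are log2 intensities, with deposited intensities under 16 set to 16, a floor of 4 on the log2 scale, and strain values are mean ± SD over 2 arrays. Of the 12422 probe sets, 7453 from 5624 genes had a mean at or above the 40th percentile, 6.00, and were tested. All 3 probe sets of Hars and Xpot were among them.

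Of the 7 markers of the sorted population on the array, 6 were bright enough to be tested, and Kit had a median of 9.51 over the arrays (range 8.15 to 10.27). Lineage markers were not uniformly low. Cd3d was at the floor on 44 and 35 arrays of its 2 probe sets and Itgam had a median of 4.34, but the brightest probe sets of Cd3g, Cd4, Mpo, Hba-a1, Ighm, Camp and S100a8 had medians of 7.11, 7.28, 8.46, 9.29, 10.36, 10.9 and 10.92. The arrays labelled BXD40 and BXD42 disagreed within each label. H2-Ea, an MHC class II gene, was 4.0 and 7.55 in the arrays labelled BXD40 and 8.67 and 4.48 in those labelled BXD42. The main values of Hars and Xpot that use these strains are therefore also given without them.

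Hars had 1 probe set (gene on chromosome 18) and split the strains into an upper and a lower set in each array series. Whether sequence differences between the parental strains under its probes change the signal was not tested. In series B the lower 6 strains lay between 4.09 ± 0.12 (SD, n = 2) in BXD28 and 4.65 ± 0.49 in BXD19, and the upper 6 between 7.08 ± 0.37 in BXD9 and 8.88 ± 0.82 in BXD2. In series A the lower 5 strains lay between 4.32 ± 0.03 in BXD40 and 5.34 ± 0.99 in BXD8, and the upper 5 between 8.25 ± 0.19 in BXD32 and 8.87 ± 0.30 in BXD6. No strain of either series had its mean between 5.34 and 7.08. The deposited intensities ran from 13.2 to 703.5. Under the floor were 4 arrays, from BXD5, BXD14, BXD28 and the label BXD42, so folds taken against the means of these strains are lower limits.

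Most lower arrays of Hars were close to the floor, and 2 arrays, of BXD8 and of the label BXD42, lay well above it. BXD28 gave 4.17 and 4.0, BXD5 gave 4.0 and 4.63, BXD14 gave 4.0 and 4.67, and BXD16 gave 4.63 and 4.06. BXD21 gave 4.35 and 4.45, BXD19 gave 4.31 and 5.00, BXD31 gave 4.74 and 4.69, and BXD38 gave 4.57 and 4.91. The arrays labelled BXD40 gave 4.30 and 4.34 and those labelled BXD42 gave 4.0 and 5.27, so Hars was low on all 4 of these arrays whichever label each belongs to. The widest pair among the lower strains was BXD8, with 6.04 and 4.64.

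The upper arrays of Hars all stood well above the floor. BXD9 had the lowest pair there, 7.34 and 6.82. BXD34 gave 7.90 and 8.25, BXD18 gave 8.18 and 8.06, BXD39 gave 8.27 and 8.26, and BXD1 gave 8.52 and 8.45. The arrays of these strains lay close together, and BXD2 was the exception in series B at 8.30 and 9.46. In series A BXD32 gave 8.12 and 8.39, BXD12 gave 8.0 and 8.51, BXD11 gave 8.60 and 8.09, BXD33 gave 9.02 and 8.46, and BXD6 gave 8.65 and 9.08. Taken array by array, 22 arrays lay between 4.0 and 6.04 and the other 22 between 6.82 and 9.46, and no strain had an array in each set.

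The step between the sets was far wider than any other step in the order of Hars levels. From the highest lower strain to the lowest upper strain, Hars differed by 2.43 (5.38-fold, BXD9 over BXD19) in series B and by 2.92 (7.55-fold, BXD32 over BXD8) in series A. The whole range was 4.80 (at least 27.8-fold) in series B and 4.55 (23.4-fold) in series A. The folds depended on the floor: at 32 they were 14.7-fold in series B and 14.6-fold in series A. The range in series A was 4.15 (17.7-fold) without BXD40 and BXD42. Within the sets most neighbours could not be ordered, because their arrays overlapped in 7 of 11 neighbouring pairs in series B and 8 of 9 in series A. In series A the step itself was the 1 pair without overlap. Hars had the largest SD between strain means of all 7453 tested probe sets, 2.01 against an SD of 0.43 between the arrays of a strain. Its intraclass correlation, the share of variance that lies between strains, was 0.955, the third highest. Without BXD40 and BXD42 the SD was 1.97 and the intraclass correlation 0.958.

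**Figure D1:**
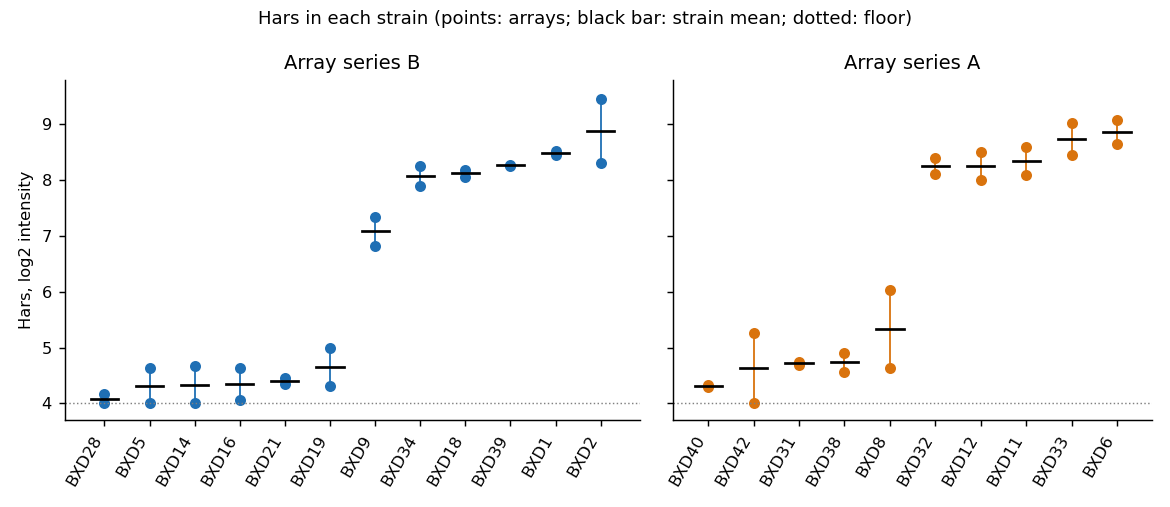
Hars level (y axis, log2 intensity) on each array (points, joined within a strain) with the strain mean (black bar), strains ordered by mean within series B (left) and series A (right); the dotted line is the floor. The 22 lower arrays end at 6.04 and the 22 upper arrays start at 6.82, and every strain has both arrays on one side.

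Xpot had 2 probe sets (gene on chromosome 10), and they gave different pictures. On the brighter one (mean 7.01) BXD6 and BXD11 stood below the other strains, with 4.30 ± 0.42 and 4.60 ± 0.09 (SD, n = 2 each). On the dimmer one (mean 6.30) the same strains were in the middle of the order, with 5.15 and 6.80 in BXD6 and 7.01 and 6.10 in BXD11. The suffix r in the name of the brighter probe set marks one for which the manufacturer's probe selection rules could not all be met. Which of the probe sets follows Xpot mRNA better was not tested.

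On the brighter probe set the 4 arrays of BXD6 and BXD11 gave 4.59, 4.0, 4.67 and 4.54, and 1 of them was under the floor. One further array, labelled BXD42, was as low at 4.49, while the other array of that label gave 7.50. Among the remaining strains of series A, BXD12 gave 7.22 and 6.16, BXD40 7.20 and 6.19, BXD38 7.78 and 6.10, and BXD31 7.70 and 6.45. These pairs differed by more than 1 on the log2 scale. BXD8 gave 7.22 and 6.89, BXD33 gave 7.07 and 7.98, and BXD32, the highest strain of series A, gave 7.26 and 8.16.

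In series B the brighter Xpot probe set was more even between strains. The widest pairs were BXD19, with 5.52 and 7.92, and BXD18, with 6.31 and 7.90. BXD16 gave 7.04 and 7.02, BXD9 6.72 and 7.54, BXD34 7.01 and 7.85, and BXD39 7.79 and 7.07. The lowest strain mean, in BXD19, therefore rested on 1 array. BXD21 gave 7.64 and 7.72, BXD14 7.31 and 8.07, BXD1 7.75 and 7.78, BXD5 7.69 and 7.92, and BXD28 7.88 and 7.89. BXD2, the highest strain, gave 8.65 and 7.41.

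The range of Xpot strain means on the brighter probe set was 1.31 (2.48-fold) in series B and 3.41 (10.7-fold) in series A. The range in series B was 2.51 without the higher array of BXD19, and that in series A was 1.72 without BXD6 and BXD11, a choice made after seeing these values. The widest step in series A was 1.39 (2.63-fold, BXD42 over BXD11), and all 11 neighbouring pairs in series B and all 9 in series A overlapped. The intraclass correlation was 0.341, rank 928 of 7453, and the SD between strain means was 0.83, as large as the SD of 0.83 between the arrays of a strain. Without BXD40 and BXD42 the intraclass correlation was 0.504 and the SD between strain means 0.87. With a floor of 32 the fold in series A was 6.54.

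On the dimmer Xpot probe set arrays of one strain differed more than strains did. Series B strains lay between 5.6 ± 1.28 in BXD28 and 7.19 ± 0.43 in BXD5, and series A strains between 5.54 ± 0.78 in BXD32 and 6.98 ± 0.40 in BXD8 (SD, n = 2). These ranges were 1.59 (3.01-fold) in series B and 1.44 (2.71-fold) in series A. Over the 44 arrays it ran from 4.60 through a median of 6.50 to 7.49. Its intraclass correlation was -0.222, rank 6445, which means that arrays of the same strain were no more alike than arrays of different strains. All neighbouring pairs overlapped in both series. The intraclass correlation was -0.183 without BXD40 and BXD42.

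**Figure D2:**
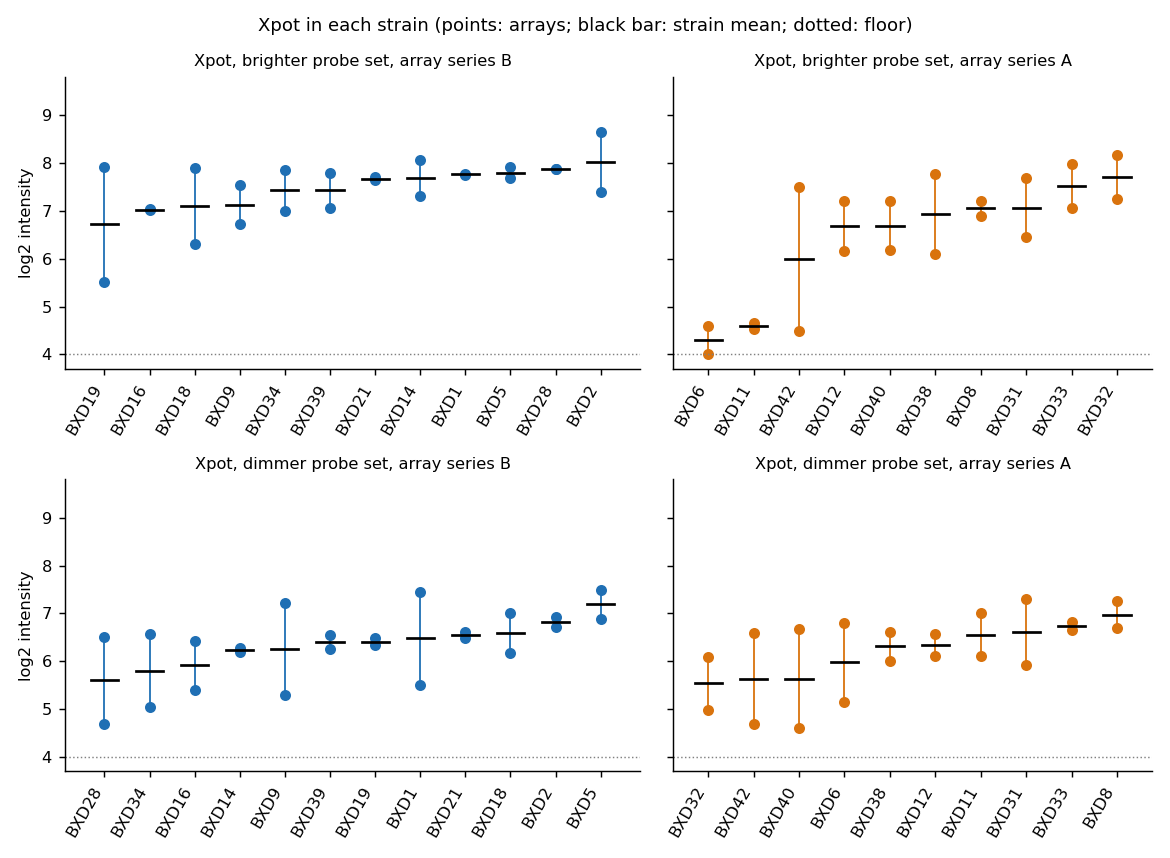
Xpot level (y axes, log2 intensity) on each array (points, joined within a strain) with strain means (black bars) for the brighter probe set (top) and the dimmer one (bottom), series B left and series A right; the dotted line is the floor. BXD6 and BXD11 stand lowest on the brighter probe set, at 4.30 and 4.60, and in the middle of the order on the dimmer one.

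The levels of Hars and Xpot were only weakly related over strains. Over the 22 strain means, each centred on its series mean, r of Hars was -0.15 with the brighter Xpot probe set and 0.13 with the dimmer one, and -0.18 and -0.05 without BXD40 and BXD42. The Xpot probe sets correlated with each other at 0.12, or 0.11 without those strains. On the brighter Xpot probe set BXD6 combined the highest Hars level of series A with the lowest Xpot level. In BXD28 the lowest Hars level of series B stood beside 7.88 ± 0.01 on that probe set. In BXD2 the highest Hars level of series B stood beside its highest level, 8.03 ± 0.88. On the dimmer probe set BXD28 was instead the lowest strain of series B, at 5.6 ± 1.28. There BXD6 was not the lowest of series A, at 5.97 ± 1.17, and BXD2, at 6.82 ± 0.14, was below only BXD5 in series B. These coefficients describe the same 44 arrays, and Hars strains lie in separate sets.

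The other synthetases showed no comparable spread. Of their 28 probe sets, 26 from 21 genes were tested, while Cars, the cysteine enzyme, and Farsa, a phenylalanine enzyme subunit, were too dim at 5.80 and 5.68. The strain effect passed for 0 of the 21 genes (limma F test, adjusted p below 0.05), against 2.67% of all tested genes. With an ordinary F test it also passed for 0. At an unadjusted p below 0.05 (limma), 3 of the 21 passed, beside 658 of all 5624 tested genes. The 3 were Aars, Tars and Tars2, the alanine, threonine and mitochondrial threonine enzymes, and the smallest adjusted p was 0.295, for Tars2. Their median SD between strain means was 0.23, beside 0.26 over all tested genes and 2.01 for Hars.

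The synthetase with the widest strain range on its brightest probe set was Tars in series A (2.73-fold) and Sars, the serine enzyme, in series B (2.97-fold). One dimmer probe set of Wars, the tryptophan enzyme, reached 3.31-fold in series A, with an intraclass correlation of 0.455, the highest of the 26. The ranges of strain means over these 26 probe sets ran from 0.44 to 1.57 in series B and from 0.45 to 1.73 in series A. Hars exceeded the widest of them by 3.05 times in series B and 2.63 times in series A on the log2 scale. Because Hars was chosen for this range, the contrast is a description. All 5 mitochondrial synthetases on the array (Fars2, Iars2, Rars2, Sars2 and Tars2) were tested. The strain effect passed for 0 of them, against 2.67% of all tested genes.

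**Figure D3:**
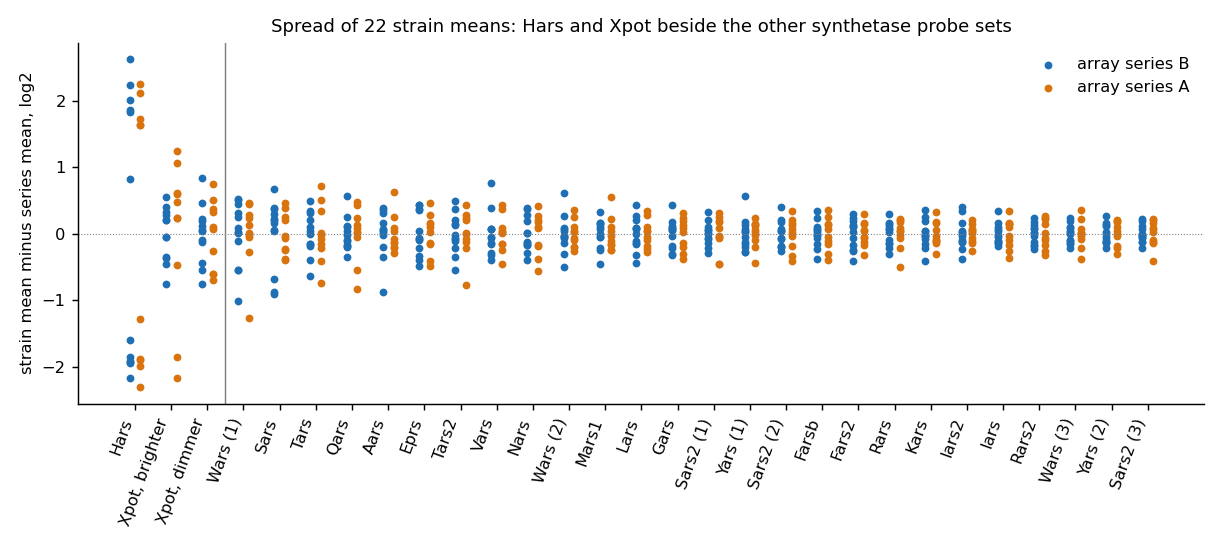
Strain means minus the mean of their array series (y axis, log2) for Hars and both Xpot probe sets (left of the line) and for the 26 tested probe sets of the other synthetases, ordered by SD between strains (series B left and series A right in each column; numbers mark probe sets of one gene). Hars shows an upper and a lower set in both series, and the brighter Xpot probe set has BXD6 and BXD11 apart in series A.

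The synthetases were only loosely related to one another and to Hars over strains. Over the 210 pairs among the 21 genes r had a median of 0.07 and ran from -0.67 to 0.73. The mean of the 21 genes correlated with Hars at 0.24 and with the brighter Xpot probe set at 0.20, or 0.19 and 0.19 without BXD40 and BXD42. With Hars, single synthetases ran from -0.44 for Sars2 to 0.49 for Lars, the leucine enzyme. With the brighter Xpot probe set they ran from -0.52 for Aars to 0.79 for Nars, the asparagine enzyme. With the dimmer Xpot probe set r was 0.13 for Aars and -0.06 for Nars. Without BXD6 and BXD11 the r of the brighter Xpot probe set and Nars was 0.73 over 20 strains. Nars was 7.18 ± 0.17 in BXD6 and 7.0 ± 0.08 in BXD11, the lowest strains for Nars as for the brighter Xpot probe set.

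The array series were compared next. What they stand for is not given in the labels, and strain and series cannot be told apart because no strain had arrays in both. Hars and Xpot were chosen on the spread between these strains, so their p-values here are a description and no independent test. Over strain means, Hars was 6.25 ± 2.03 in series B and 6.62 ± 2.00 in series A (SD, n = 12 and 10), a difference of -0.37 ± 0.79 (SE; limma, adjusted p = 0.773). Without BXD6 and BXD11 the sign turned, to 0.13. The brighter Xpot probe set was 7.47 ± 0.40 in series B and 6.46 ± 1.16 in series A, higher by 1.02 ± 0.33 (adjusted p = 0.0271). That call was lost without BXD6 and BXD11 (0.51, adjusted p = 0.0615) and without BXD40 and BXD42 (0.99, adjusted p = 0.0565), and without 1 array each of BXD38 (0.0531), BXD42 (0.0657) and BXD19 (0.0686). The dimmer probe set gave 6.35 ± 0.44 in series B and 6.23 ± 0.51 in series A, a difference of 0.12 ± 0.19 (adjusted p = 0.687). Some cell type markers also differed, where 12.3% of all tested genes were higher in series B and 10.7% lower. Kit was 9.70 ± 0.23 in series B and 9.12 ± 0.30 in series A (adjusted p = 7.04e-04), 1 of 6 tested markers of the sorted population to pass. Of 10 neutrophil and monocyte markers Mpo was higher and Camp and S100a9 were lower in series B. Of 8 B cell markers Cd79a was higher and Cd79b lower, and of 2 megakaryocyte markers Nfe2 was lower. No tested marker of the other cell types passed. The part of these markers in the Xpot difference was not tested.

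Among the 21 other synthetases 1 was higher in series B, against 12.3% of all tested genes, and 3 were lower, against 10.7%. With each array centred on its median, 26.3% of all called genes were higher in series B in place of 53.3%. Nars was higher, at 7.93 ± 0.26 in series B and 7.55 ± 0.31 in series A (0.38 ± 0.12 SE, adjusted p = 0.0231). Wars was lower on its brightest probe set, at 8.63 ± 0.14 in series B and 8.93 ± 0.21 in series A (-0.30 ± 0.08, adjusted p = 0.00906), but 2 dimmer probe sets of the gene gave 0.12 (adjusted p = 0.43) and 0.11 (adjusted p = 0.722). Kars and Mars1, the lysine and methionine enzymes, were lower, with differences of -0.27 (adjusted p = 0.0341) and -0.29 (adjusted p = 0.0353). Of 2 tested scaffold genes of the multisynthetase complex, Aimp2 was lower (-0.58 ± 0.08, adjusted p = 3.5e-05) and Aimp1 did not pass. The other synthetases, including Eprs, Qars, Rars, Iars and Lars of that complex, did not pass, with differences of 0.001, 0.07, -0.09, -0.12 and -0.15 in these 5. The count of 4 was 2 without 1 array each of BXD8, BXD9, BXD19, BXD28 and BXD42.

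Genes of the amino acid response were counted next, since uncharged tRNA is their known trigger. The strain effect passed for 1 of 20 tested genes, Ddit4, an inhibitor of mTORC1 (adjusted p = 0.00104), against 2.67% of all tested genes. Ddit4 had an r of 0.21 with Hars over the 22 strains. In series B 3 genes were higher, namely Atf3, Ppp1r15a and the glutamine carrier Slc1a5, and 2 were lower, Ddit3 and Ddit4, against 12.3% higher and 10.7% lower of all tested genes. Asns, the asparagine synthetase that is a standard Atf4 target, did not pass either test and had an r of -0.20 with Hars. The median r of the 20 genes was 0.09 with Hars and 0.10 with the brighter Xpot probe set, beside -0.02 and 0.01 over all tested genes.

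Because Atf4 is known to bind composite elements of the form TGATGNAA, the RefSeq promoters of GRCm38.p6 (250 bases before to 50 after each start) were searched on both strands. No promoter sequence of Hars was at hand, so Hars was not searched. Xpot's promoter held no match. The table has promoters of 17 of the 23 other synthetases. Of these 17, 5 held a match, or 29.4%, against 3.97% of 32851 promoters. The stretches around the matches of Gars, Tars and one of 2 in Aars are shown because these matches lie before the start. They are printed in the direction of the gene, with the matched bases, which lie on the opposite strand, in capitals. They lie at chr6:55037955-55037994 (+ strand), chr15:11399650-11399689 (- strand) and chr8:111033714-111033753 (+ strand).
Gars: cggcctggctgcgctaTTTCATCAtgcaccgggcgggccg
Tars: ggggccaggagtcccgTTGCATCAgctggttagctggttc
Aars: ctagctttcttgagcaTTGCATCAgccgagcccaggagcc
None of these 3 genes passed the strain effect or the series difference. Their r with Hars was 0.06 for Gars, 0.26 for Tars and -0.01 for Aars. A match is a description of the letters and not a bound site.

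Xpot works with the Ran cycle and belongs to the exportin and importin family. Of 15 other genes of this group tested, 0 passed the strain effect (limma, adjusted p below 0.05), against 2.67% of all tested genes. At an unadjusted p below 0.05, 5 of the 15 passed it, beside 658 of all 5624 tested genes. The series difference passed for 5. In series B 3 were higher, against 12.3% of all tested genes, and 2 lower, against 10.7%. Kpna6 (0.27), Rangap1 (0.34) and Tnpo1 (0.41; its second probe set 0.08, adjusted p = 0.745) were higher, and Ran (-0.25) and Ranbp1 (-0.53) were lower. Ran is the GTPase whose GTP-bound form exportin-t needs, Rangap1 and Ranbp1 help to release the cargo in the cytoplasm, and Kpna6 and Tnpo1 are import factors. Xpo1, the main protein exportin, did not pass either test.

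Of 17 tested genes of tRNA transcription and maturation, 1 passed the strain effect, Polr3k, a subunit of RNA polymerase III (adjusted p = 0.0226; its second probe set had an adjusted p of 0.166), against 2.67% of all tested genes. Polr3k had an r of -0.24 with Hars. Against 12.3% and 10.7% of all tested genes, 1 of the 17 was higher and 1 lower in series B. Trnt1, which adds the CCA end, was higher by 0.23 ± 0.08 (SE), and Rpp30, a subunit of RNase P, was lower, with a difference of -0.35 ± 0.12 on its brightest probe set and 0.19 (adjusted p = 0.488) on the other. Of 6 elongation factor genes 0 passed either test. Of 3 genes of histidine handling 1 could be tested, the amino acid carrier Slc38a5, which was lower in series B (-0.25 ± 0.08).

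The genes whose strain pattern was most like that of Hars were ranked by r over the 22 centred strain means among 6645 probe sets. The highest were Mepce (0.78), a capping enzyme of 7SK RNA, Ciao1 (0.72), a factor for cytosolic iron-sulfur proteins, Arhgef25 (0.67), Pcyt2 (0.65) and Dag1 (0.65). The lowest were Kif20a (-0.72), a kinesin of the dividing spindle, Synj2 (-0.70), Fto (-0.69), Stx7 (-0.68) and Ung (-0.66). Since Hars strains form separate sets, r was also taken within the lower 11 and the upper 11 strains. Mepce had r of 0.80 and 0.36 there, and Kif20a had 0.12 and 0.15. For Ciao1, Arhgef25, Pcyt2 and Dag1 r was 0.63, -0.52, 0.38 and 0.50 in the lower set. In the upper set it was 0.35, 0.28, 0.47 and 0.02. Synj2, Fto, Stx7 and Ung had -0.28, -0.19, -0.53 and -0.48 in the lower set. In the upper set they had -0.05, -0.29, -0.28 and -0.38. Most Hars arrays of the lower set were close to the floor, and 4 were under it. Other probe sets of these genes followed Hars less closely, with r of 0.26 for both Mepce and Dag1, -0.48 for Kif20a, -0.07 for Ung and 0.02 for a dim one of Synj2. Without BXD40 and BXD42 the r of the 10 genes ran from 0.61 to 0.76 and from -0.62 to -0.70.

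Kif20a lies on the same chromosome as Hars, with 45 coding genes between them in RefSeq order. It was 7.24 ± 0.36 in BXD11, 7.31 ± 0.03 in BXD34 and 7.38 ± 0.26 in BXD32, its lowest strains, all with Hars above 8. It was 9.14 ± 0.47 in BXD42 and 8.83 ± 0.06 in BXD38, where Hars was below 5. BXD18 went against this order, with Kif20a at 8.80 ± 0.02 and Hars at 8.12 ± 0.09. The strain effect of Kif20a had an adjusted p of 0.0363 and was lost in 35 of 56 alternatives. None of the other 9 named genes passed it, against 2.67% of all tested genes.

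**Figure D4:**
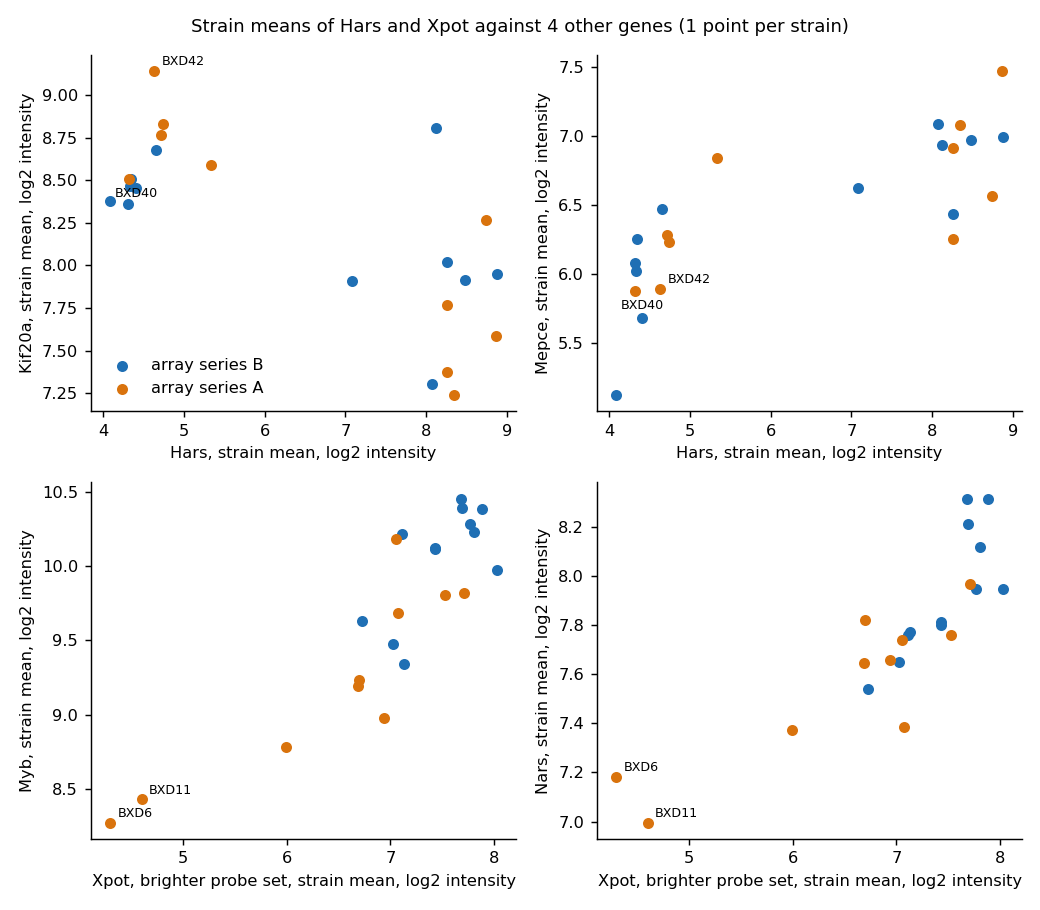
Strain means (log2 intensity, 1 point per strain) of Kif20a and Mepce against Hars (top) and of Myb and Nars against the brighter Xpot probe set (bottom), series B in blue and series A in orange. Kif20a runs against Hars mainly through the distance between the Hars sets, and BXD6 and BXD11 lie at the low end of both lower panels.

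For the brighter Xpot probe set the highest r were with Myb (0.82), a transcription factor of blood progenitors, Utp4 (0.82), a factor of small ribosomal subunit assembly, Asnsd1 (0.80), Atxn10 (0.80) and Adi1 (0.79). The lowest were with Ccdc12 (-0.81), the ubiquitin ligase Wwp2 (-0.81), Dnajc2 (-0.80), a chaperone on the ribosome, Ext1 (-0.78) and Ybx1 (-0.78), an RNA-binding protein. Part of this rested on BXD6 and BXD11. Without them r was 0.73 for Myb, 0.77 for Asnsd1 and -0.75 for Ybx1, but 0.48 for Utp4 and Adi1. In series B alone r was -0.01 for Utp4 and 0.68 for Myb. Other probe sets of these genes followed Xpot less closely, with r of 0.29 for Asnsd1, 0.33 for Atxn10, -0.39 for Ccdc12, -0.61 for Dnajc2, 0.15 for Wwp2 and -0.09 for a dim one of Myb. Without BXD40 and BXD42 the r of the 10 genes ran from 0.80 to 0.83 and from -0.79 to -0.87. Myb averaged 8.27 ± 0.86 in BXD6 and 8.43 ± 0.16 in BXD11. None of these 10 genes passed the strain effect, against 2.67% of all tested genes.

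Genes beside Hars on the chromosome were followed as well, and none of the 10 passed the strain effect, against 2.67% of all tested genes. The nearest measured gene on one side was Wdr55, with 1 coding gene between, at r = -0.23. Beyond it Ik, Ndufa2, Cd14 and Sra1 had r of 0.20, -0.61, 0.43 and 0.43. On the other side 64 coding genes, 57 of them protocadherins, separated Hars from Diaph1, the first measured gene there, at r = 0.14. Farther out Arap3, Rnf14, Gnpda1 and Ndfip1 had r between -0.23 and 0.45. Without BXD40 and BXD42 the larger values were 0.62 for Sra1, 0.54 for Cd14, -0.58 for Ndufa2 and 0.51 for Gnpda1, the other 6 lying between -0.23 and 0.17. The adjusted p of the strain effect lay between 0.43 and 0.981 over the 10 genes. Hars2, the mitochondrial paralog among the 64, had 0 probe sets in the probe table, and whether the Hars probes also match its mRNA was not tested.

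None of the 10 neighbours of Xpot passed the strain effect either, against 2.67% of all tested genes. Tbk1, the next coding gene, had r = 0.18 with the brighter Xpot probe set. Helb, Rap1b, Nup107 and Mdm2 on that side had 0.06, 0.69, -0.04 and 0.08. On the other side Rxylt1, Avpr1a, Usp15, Ctdsp2 and Avil had -0.40, -0.21, 0.67, -0.04 and 0.17. Rap1b had 0.72, Usp15 0.67 and Rxylt1 -0.39 without BXD40 and BXD42, and the other 7 lay between -0.24 and 0.25. Adjusted p for the strain effect lay between 0.46 and 0.974 over these 10 genes.

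Markers of other cell types were set beside Hars and Xpot. The summed intensity of 6 erythroid genes over 7 probe sets was 4093 and 4456 in BXD6 and 3145 and 2393 in BXD11, against 715 to 2373 on the other 16 arrays of series A and 877 to 4585 on the 24 arrays of series B. On the log2 scale the sum correlated with the brighter Xpot probe set at -0.64 and with Hars at 0.49 over strain means, or -0.64 and 0.56 without BXD40 and BXD42. Alpha globin (Hba-a1) made up 18.2 to 84.2% of the sum and alone had r of -0.59 with Xpot and 0.50 with Hars. Slc4a1, Alas2 and Epor had r of -0.30, -0.34 and -0.32 with the brighter Xpot probe set. With Hars they had 0.45, 0.27 and 0.004. The erythroid transcription factors went the other way with the brighter Xpot probe set. There r was 0.45 for Gata1 (-0.38 with Hars) and 0.17 for Klf1 (-0.06 with Hars). With the dimmer Xpot probe set r was -0.24 for Hba-a1, -0.06 for Gata1 and -0.19 for Klf1. Of the 6 genes, 4 were bright enough to be tested, while Alas2 and Epor were too dim. The strain effect passed for 1 of the 4, Hba-a1, against 2.67% of all tested genes. The highest array of all, from BXD34 at 4585, had Xpot at 7.01 and Hars at 7.90. On the dimmer Xpot probe set BXD6 and BXD11 were in the middle of the order, at 5.97 ± 1.17 and 6.56 ± 0.65. The part of erythroid cells in the Xpot levels was not tested, nor which probe set follows Xpot mRNA. If the brighter one does, fewer cells with Xpot and less Xpot RNA per cell cannot be told apart in pooled cells.

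**Figure D5:**
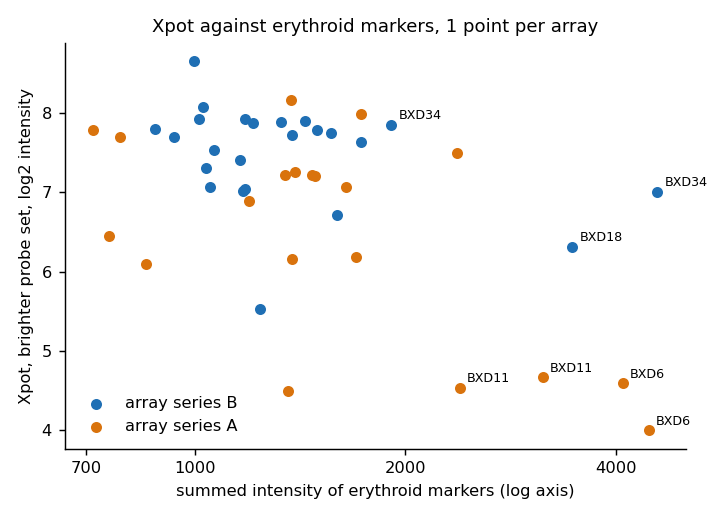
Level of the brighter Xpot probe set (y axis, log2 intensity) against the summed intensity of 6 erythroid genes (x axis, log scale), 1 point per array, series B in blue and series A in orange. The 4 arrays of BXD6 and BXD11 combine sums of 2393 to 4456 with Xpot between 4.0 and 4.67, while BXD34 reached 4585 with Xpot at 7.01.

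The other marker sums moved with Hars and the brighter Xpot probe set to differing degrees. The neutrophil and monocyte sum (12 genes, 10 tested) ran from 6857 to 17550 and had r of 0.46 with Hars and 0.18 with Xpot. The megakaryocyte sum (5 genes) had 0.36 and -0.14, the B cell sum (8 genes) -0.15 and -0.39, the T and NK cell sum (7 genes) -0.38 and 0.01, and the mast cell, basophil and eosinophil sum (6 genes) -0.29 and 0.23. The neutrophil and monocyte genes did not move together. On their brightest probe sets S100a9, S100a8, Lyz2, Ngp, Camp and Ltf had r between 0.43 and 0.59 with Hars. Mpo, Elane, Prtn3 and Csf1r had r between -0.34 and -0.21 with Hars. The B cell sum was 16680 and 18070 in BXD6, including the highest of all 44 arrays (lowest 6161, median 8490), and 7048 and 6684 in BXD11. The sum for the sorted population (7 genes) ran from 3779 to 6160 and had r of 0.02 with Hars and 0.04 with Xpot. The part of these cell types in the Hars and Xpot levels was not tested.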

How the data were processed

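Each array measured RNA from sorted marrow cells of 3 pooled mice. The deposited intensities were one-colour values on a linear scale for 12488 probe sets, scaled by the authors: from the values, the 2% trimmed mean was between 200.071 and 200.092 on every array. The software that summarised the probes and the genome build are not given in the sources used here. Scanner parameter files were not used.

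Values below 16 were raised to 16 before the log2 step, with no further normalization (array medians 6.56 to 6.83). The 66 control probe sets were left out. Gene names are those of the platform table (10833 probe sets with 1 symbol, 396 with several, 1193 with none), of which 10817 matched RefSeq. A gene was counted by its brightest tested probe set. limma 3.58.1 in R 4.3.3 tested strains by an F test over 20 contrasts within array series and compared series on the 22 strain means, with Benjamini-Hochberg adjustment over all 7453 probe sets and a threshold of 0.05. The scripts were tested on simulated data. Correlations are Pearson's r over strain means centred on their series, given without p. The number of arrays limits the precision.

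Hars, Xpot, the gene lists and the tests were chosen with earlier results of these data known. Genes named were both members, all synthetases, the 5 of highest and 5 of lowest r for each member, the 5 measured genes on each side, and list members past a test. Alternatives were another scaling, floor, filter or test, each array left out, and sets of strains left out.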

Additional observations from a re-analysis of the deposited data

Results flagged for a closer look

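Among 29 probe sets of Hars, Xpot and the other synthetases, 2 had 1 strain of series A far from the rest, where chance gives such a strain in about 1 of 20. A dimmer probe set of Wars was 4.90 in BXD12, with the next strain at 5.90 and the highest at 6.63. Tars2 was 7.74 in BXD42, with the next strain at 8.31 and the highest at 8.95; the arrays labelled BXD42 disagreed with each other elsewhere. No probe set of Hars or Xpot had such a strain.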

How the results depend on the processing

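No paired analysis was possible because the labels give no replicate numbers, and those used here only name arrays. The strain effect passed for 150 genes, for 120 to 176 with each array left out, for 90 without BXD2, BXD6 and BXD34, and for 38 in series A alone (fewer samples). It passed for 0 of the other synthetases in all 57 alternatives. With a floor of 32 the Hars range was 3.88 in series B and 3.87 in series A, since a higher floor raises the lower strains. With each array left out the Hars range was 4.40 to 5.37 in series B and that of the brighter Xpot probe set 1.00 to 2.51, the highest values being without 1 array of BXD2 and without 1 of BXD19. The Xpot range in series A was 1.72 without BXD6 and BXD11. The Hars series difference was 0.13 without them (adjusted p = 0.929), and the cause was not tested.

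The Xpot series difference was 0.51 without BXD6 and BXD11 (adjusted p = 0.0615), 0.73 without BXD2, BXD6 and BXD34 (0.0784) and 0.99 without BXD40 and BXD42 (0.0565). It was 0.87 to 1.17 with each array left out, and the call was lost without 1 array each of BXD38 (0.0531), BXD42 (0.0657) and BXD19 (0.0686). Because Xpot was chosen on its spread between strains, these p-values are a description. The count of 4 synthetases with a series difference was 2 to 4 with each array left out, 2 without BXD40 and BXD42, 1 without BXD2, BXD6 and BXD34, and 2 without BXD6 and BXD11. The 2 came without 1 array each of BXD8, BXD42, BXD19, BXD9 and BXD28. Of 54 alternatives the call was lost in 14 for Kars, 12 for Mars1, 7 for Nars and 0 for Wars. Among list members it was lost in 21 for Rangap1, 13 for Ran and Trnt1, 7 for Kpna6 and Ddit4, 5 for Rpp30, 2 for Slc38a5, and in 9 of 53 for Slc1a5. The strain effect was lost in 2 of 56 for Ddit4 and 4 of 56 for Polr3k. Leaving out BXD6 and BXD11 was chosen after seeing the data.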
